A study of Caenorhabditis elegans with 8 samples.

Results

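The cytosolic ribosomal proteins of the small subunit were followed at the mRNA level in whole Caenorhabditis elegans exposed to zidovudine. The set holds the 32 genes of the deposited table whose symbol is rps- followed by a number, that is rps-0 to rps-30, or ubl-1, out of 17826 genes in all. The 4 zidovudine samples were wild-type worms of the strain N2 placed as fourth-stage larvae on plates with 50 µM zidovudine, a thymidine analogue used against retroviruses, and collected after 24 h as adults of day 1. The 4 DMSO samples were N2 worms of the same age kept for the same time on plates with the vehicle. All 8 samples carry the same treatment text, by which 5-fluorouracil, another pyrimidine analogue, was in the plates as well; both groups are therefore described as having it. Each sample was a pool of about 1000 worms. Whether the pools were grown as separate cultures is not given in the labels, and every p-value here rests on the spread among the 8 pools, which may be technical.

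The small subunit of the cytosolic ribosome binds the mRNA, scans for the start codon and holds the decoding centre, where codons are matched with tRNAs. Its proteins coat 1 ribosomal RNA and fall into a head, which closes over the mRNA and the tRNAs, and a body with its platform. Some belong to families shared with bacteria (names starting with uS) and others to families not found in bacteria (names starting with eS). Their mRNAs are short and among the most abundant of a growing animal, and their supply is commonly read together with the growth state of cells.

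Levels are given as log2 CPM of polyadenylated RNA, CPM being a gene's reads scaled to the size of its library. Reads assigned to genes ranged per library from 30449021 in DMSO 3 to 56930820 in zidovudine 1. The sample titles and column names give no flow cell. It was inferred from the opening part of each sample description, which differed in DMSO 4 alone. If that part names the flow cell, the effect of that run and of the library cannot be told apart. Leaving DMSO 4 out would then give the comparison within 1 flow cell. In DMSO 4, 8.24% of the genes had 0 reads, against 1.07% to 2.17% in the other libraries. The level of short mRNAs varied among libraries too. All 678 tested genes with under 500 nt of exon deviated from their own mean over the 8 libraries by a median of -0.063, 0.47, -0.46 and -0.63 log2 units in zidovudine 1 to 4, and of 0.12, 0.11, -0.027 and 0.50 in DMSO 1 to 4. Markers of intestine, body wall muscle, pharynx, neurons, epidermis, germ line and oocytes had reads in every library, 29 genes in all. Of 4 sperm markers 2 passed the filter on low values, and spe-38 had 0 reads in DMSO 4. Summed over 4 markers, pharynx genes lay between 118 and 149 CPM with zidovudine and between 89.7 and 108 CPM with DMSO, without overlap. The pharynx list is named for that reason, after its values were seen, and in every other marker list the groups overlapped. The part of tissue composition in the results below was not tested. In whole worms, fewer cells of a type and less RNA per cell cannot be told apart.

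The comparison asks whether the mRNAs of the small subunit proteins differed between zidovudine and DMSO, in a study whose title names reduced translation. All 32 members had a lower mean with zidovudine, by small amounts, and none passed the test. The log2 fold changes, zidovudine minus DMSO, ran from -0.75 for rps-29 to -0.012 for rps-4, with a median of -0.15, against a median of 0.0082 over the 12382 genes tested. Below 0 were 47.7% of all tested genes. Among genes as short as the members the share was higher. Below 0 were 597 of the 678 tested genes under 500 nt of exon, and 1784 of the 2725 of 500 to under 1000 nt. All 32 members passed the filter on low values, and 0 of 32 had a limma adjusted p under 0.05, where 0.170% of all tested genes did (21 genes, 7 higher and 14 lower). The smallest limma adjusted p of a member was 0.327, for rps-15.

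At an unadjusted limma p under 0.05 there were 3 members (rps-15, rps-17 and rps-24), or 2 with voom on the recovered reads, where 11.8% of all genes passed with limma and 13.2% with voom. All 3 were lower with zidovudine, a direction in which 5.48% of all genes passed with limma. In no member were the 4 zidovudine libraries all below the 4 DMSO libraries, which held for 2.82% of all tested genes. For 29 of the 32 members the 95% interval of the log2 fold change included 0. For 24 members it excluded a decrease of 1.5-fold or more, and for the other 8 (rps-20, rps-21, rps-24, rps-25, rps-26, rps-27, rps-28 and rps-29) it did not.

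**Figure D1:**
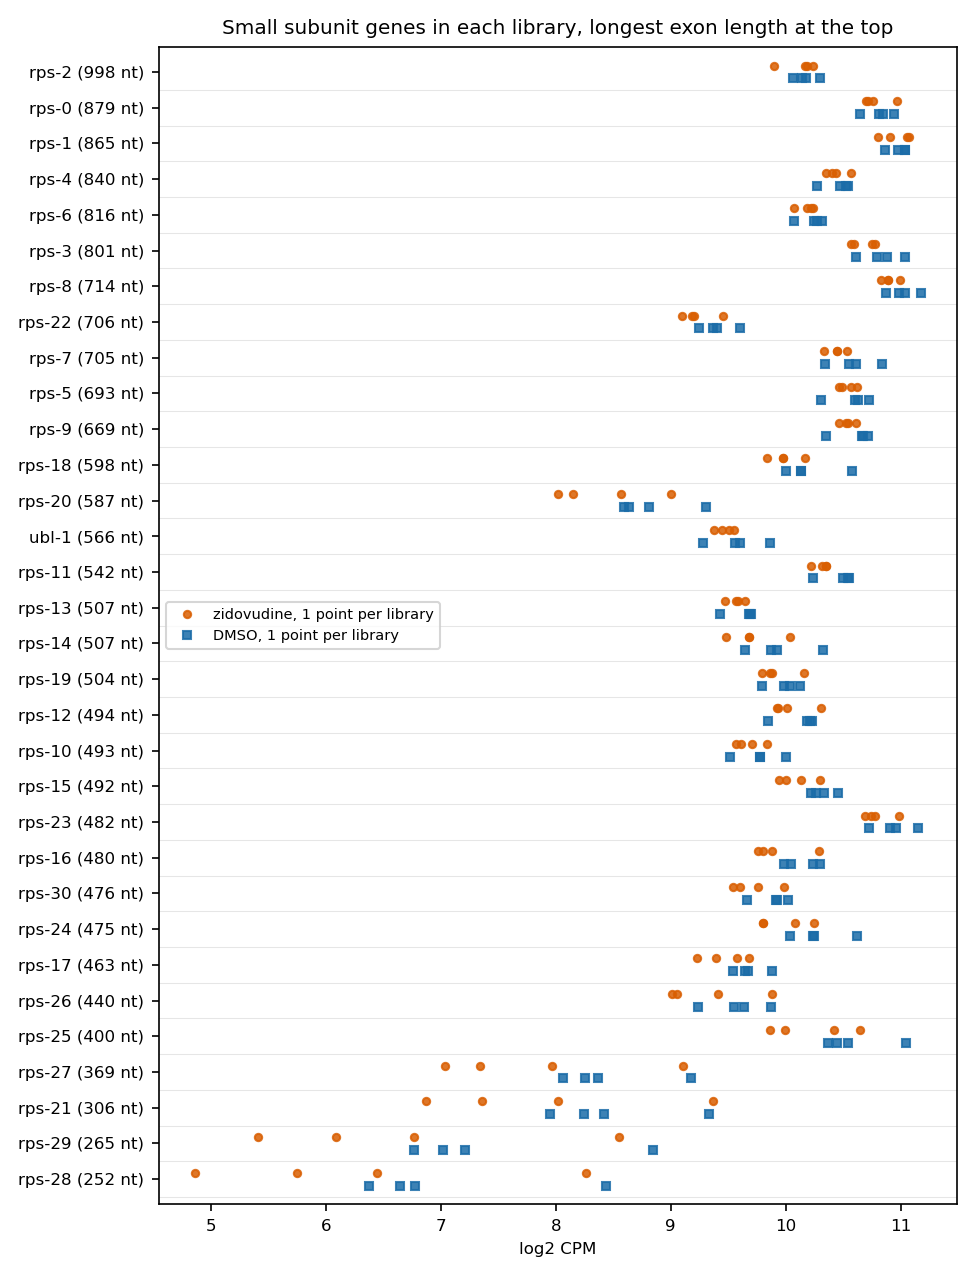
Level of each small subunit gene (log2 CPM, horizontal axis) in each library, with the genes ordered by exon length from rps-2 (998 nt) at the top to rps-28 (252 nt) at the bottom; orange circles are zidovudine and blue squares DMSO libraries. The groups overlap in all 32 genes, and the 4 genes under 400 nt spread over the widest ranges in both groups.

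Together the members took 3.33%, 3.68%, 3.02% and 3.14% of the reads in zidovudine 1 to 4, and 3.199%, 3.64%, 3.62% and 4.11% in DMSO 1 to 4. The share averaged 3.29% ± 0.289 with zidovudine and 3.64% ± 0.373 with DMSO (SD, n = 4 each). The groups overlapped, since zidovudine 1 and zidovudine 2 lay above DMSO 1, the lowest of its group, and DMSO 4 was the highest library. The mean log2 CPM over the 32 members was 9.70, 10.04, 9.53 and 9.52 in zidovudine 1 to 4, and 9.66, 9.90, 9.87 and 10.21 in DMSO 1 to 4. Its group difference was -0.21 with all libraries, -0.11 without DMSO 4 and -0.32 without zidovudine 2. Of the 32 members 21 were highest in DMSO 4, 10 were lowest in zidovudine 4, 10 in zidovudine 3 and 10 in DMSO 1.

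Among the head proteins, rps-15 (WBGene00004484; chromosome I, 8815572 to 8816193 in WBcel235, protein coding, 3 exons) had the smallest p. It encodes the uS19 protein, which lies near the site where tRNAs are decoded. Its level was 10.13, 10.29, 10.005 and 9.94 log2 CPM in zidovudine 1 to 4, and 10.33, 10.22, 10.26 and 10.45 in DMSO 1 to 4. Zidovudine 2 lay within the DMSO range and the other 3 zidovudine libraries below it. The log2 fold change was -0.22 (95% interval -0.41 to -0.039, SE 0.087, limma adjusted p = 0.327).

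rps-17, for the head protein eS17, was at 9.58, 9.68, 9.39 and 9.23 log2 CPM with zidovudine and at 9.54, 9.68, 9.65 and 9.88 with DMSO. Zidovudine 1 and 2 lay inside the DMSO range, and zidovudine 3 and 4 under it (log2 fold change -0.22, limma adjusted p = 0.414). rps-18, for uS13, which takes part in contacts between the subunits, was at 9.98, 10.16, 9.83 and 9.97 with zidovudine and at 10.003, 10.13, 10.13 and 10.57 with DMSO. DMSO 4 alone lay far above every other library (log2 fold change -0.22, limma adjusted p = 0.472), and without DMSO 4 the value was -0.10.

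ubl-1 (chromosome III, 3068310 to 3069210) encodes a ubiquitin-like domain fused to the head protein eS31, and the fusion is cut to release the ribosomal protein. Its level was 9.45, 9.51, 9.38 and 9.55 log2 CPM with zidovudine and 9.28, 9.60, 9.56 and 9.86 with DMSO. All 4 zidovudine libraries lay between DMSO 1 and DMSO 3 (log2 fold change -0.11, limma adjusted p = 0.685, 95% interval -0.32 to 0.11).

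The other head members differed in how firmly their values were set. rps-3, whose uS3 protein lines the channel through which mRNA enters, was at -0.16 (SE 0.093), and rps-16, whose uS9 tail reaches the tRNA in the peptidyl site, at -0.21 (SE 0.11). rps-10 was at -0.086, rps-12 at -0.074, rps-19 at -0.060 and rps-5, for the uS7 protein of the mRNA exit side, at -0.030. rps-25 was at -0.37 (SE 0.22) and rps-20 at -0.40 (SE 0.27), and both ranged over more than 1 log2 unit among the 8 libraries. In human cells eS10 and uS10, the products of the homologues of rps-10 and rps-20, are ubiquitinated when ribosomes stall. rps-20 also shares 110 nt of exon with the microRNA gene mir-354 on the same strand, so its count is uncertain. rps-4, rps-16 and rps-18 share 21, 12 and 50 nt of exon with a neighbouring gene. The 14 head genes had a median log2 fold change of -0.21.

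Among the body proteins, rps-24, for eS24, had the smallest p. It was at 10.08, 10.25, 9.80 and 9.80 log2 CPM in zidovudine 1 to 4, and at 10.03, 10.25, 10.24 and 10.62 in DMSO 1 to 4. Zidovudine 3 and 4 were below every DMSO library and DMSO 4 was above every other library. The log2 fold change was -0.30 (SE 0.13, limma adjusted p = 0.417) and the 95% interval ran from -0.60 to -0.0057. The homologues of rps-24, rps-17, rps-19 and rps-26 are among the genes mutated in the human disorder Diamond-Blackfan anaemia.

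rps-22, for uS8, was at 9.20, 9.45, 9.10 and 9.18 log2 CPM with zidovudine and at 9.24, 9.40, 9.37 and 9.60 with DMSO. Zidovudine 2 was above 3 of the DMSO libraries, and the other zidovudine libraries were below all of them (log2 fold change -0.17, limma adjusted p = 0.482). rps-11, for uS17, was at 10.35, 10.35, 10.22 and 10.32 with zidovudine and at 10.24, 10.50, 10.55 and 10.55 with DMSO. DMSO 1 was low here, at the level of zidovudine 3 (log2 fold change -0.15, limma adjusted p = 0.498).

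rps-6 (chromosome I, 13952161 to 13953203) encodes eS6, the protein that the S6 kinase RSKS-1 phosphorylates downstream of the TOR kinase. It had 10.07, 10.19, 10.22 and 10.24 log2 CPM with zidovudine and 10.07, 10.27, 10.24 and 10.32 with DMSO. The libraries of both groups lay within 0.25 of each other, the narrowest range of any member, and the log2 fold change was -0.047 (limma adjusted p = 0.822, 95% interval -0.21 to 0.12). The mRNA of the kinase itself, rsks-1, had a log2 fold change of -0.12 (SE 0.067, limma adjusted p = 0.506).

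rps-30 (chromosome V, 7776578 to 7777225) encodes eS30, which in humans is made as a fusion with a ubiquitin-like protein. Its level was 9.76, 9.98, 9.54 and 9.60 log2 CPM with zidovudine and 9.66, 9.93, 9.92 and 10.02 with DMSO. Zidovudine 3 and 4 were under the DMSO range, and the other pair was inside it (log2 fold change -0.16, limma adjusted p = 0.555).

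The members with the largest p were rps-4 and rps-1, both for proteins of the body. rps-4 was at 10.35, 10.44, 10.40 and 10.57 log2 CPM with zidovudine and at 10.27, 10.52, 10.54 and 10.47 with DMSO (log2 fold change -0.012, 95% interval -0.19 to 0.16). rps-1, for eS1 at the mRNA exit, was at 10.90, 10.80, 11.06 and 11.07 with zidovudine and at 10.86, 11.04, 11.04 and 10.98 with DMSO (log2 fold change -0.020, 95% interval -0.20 to 0.16). In both genes the highest library was a zidovudine library, zidovudine 4.

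Of the other long members of the body, rps-0 was at -0.026, rps-2 at -0.049 and rps-9 at -0.063, with 95% intervals whose lower ends were -0.21, -0.23 and -0.25. rps-8 was at -0.12 and rps-7 at -0.15. Among shorter body genes, rps-13 was at -0.054, rps-23, for the uS12 protein of the decoding centre, at -0.14, rps-14 at -0.22 and rps-26 at -0.23; uS11 and eS26, made from rps-14 and rps-26, line the mRNA exit. The 18 body genes had a median of -0.14. The 15 genes of families shared with bacteria had a median of -0.16, and the 17 genes of the other families one of -0.15. Without DMSO 4 these medians were -0.13 for head and -0.064 for body genes, -0.095 for the families shared with bacteria and -0.064 for the others. Without DMSO 1 they were -0.24 for head and -0.21 for body genes, -0.22 for the families shared with bacteria and -0.23 for the others.

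Head and body genes differed in length, with medians of 493.5 nt and 605.5 nt of exon. Among genes under 500 nt the median log2 fold change was -0.22 for 8 head and -0.27 for 6 body genes. Among genes of 500 nt or more it was -0.13 for 6 head and -0.058 for 12 body genes, so head and body stood in opposite order in the shorter and the longer genes. With each library's trend on length removed, head genes were at 0.0045 and body genes at 0.0079. No test was made between head and body.

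The 4 members with under 400 nt of exon had the lowest fold changes and the widest spread. rps-28 (252 nt; chromosome IV, 1659691 to 1659997), for eS28, was at 6.45, 8.26, 5.75 and 4.86 log2 CPM in zidovudine 1 to 4, and at 6.38, 6.78, 6.64 and 8.44 in DMSO 1 to 4. The highest and the lowest library differed by 3.58 log2 units, and zidovudine 2 and DMSO 4 stood above the other 6 libraries. Its log2 fold change was -0.73 with a 95% interval of -2.78 to 1.32 (limma adjusted p = 0.751). rps-29 (265 nt), for the uS14 protein, followed the same order of libraries, at 6.77, 8.55, 6.09 and 5.41 with zidovudine and 6.76, 7.21, 7.02 and 8.85 with DMSO (log2 fold change -0.75, 95% interval -2.72 to 1.21).

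rps-21 (306 nt) was at 8.02, 9.37, 7.35 and 6.87 log2 CPM with zidovudine and 7.95, 8.42, 8.25 and 9.33 with DMSO (log2 fold change -0.58, SE 0.61). rps-27 (369 nt), for a zinc-binding protein, was at 7.97, 9.11, 7.34 and 7.03 with zidovudine and 8.06, 8.37, 8.25 and 9.18 with DMSO (log2 fold change -0.60, SE 0.51). rps-29, rps-21 and rps-27 are given in full because of their spread and were chosen after their values were seen. Each of these 4 genes had at least 1417 reads in every library, so counting error is small beside these differences. Without zidovudine 4 the median of the 4 was -0.28, without DMSO 4 it was -0.30, and without zidovudine 2 it was -1.22.

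**Figure D2:**
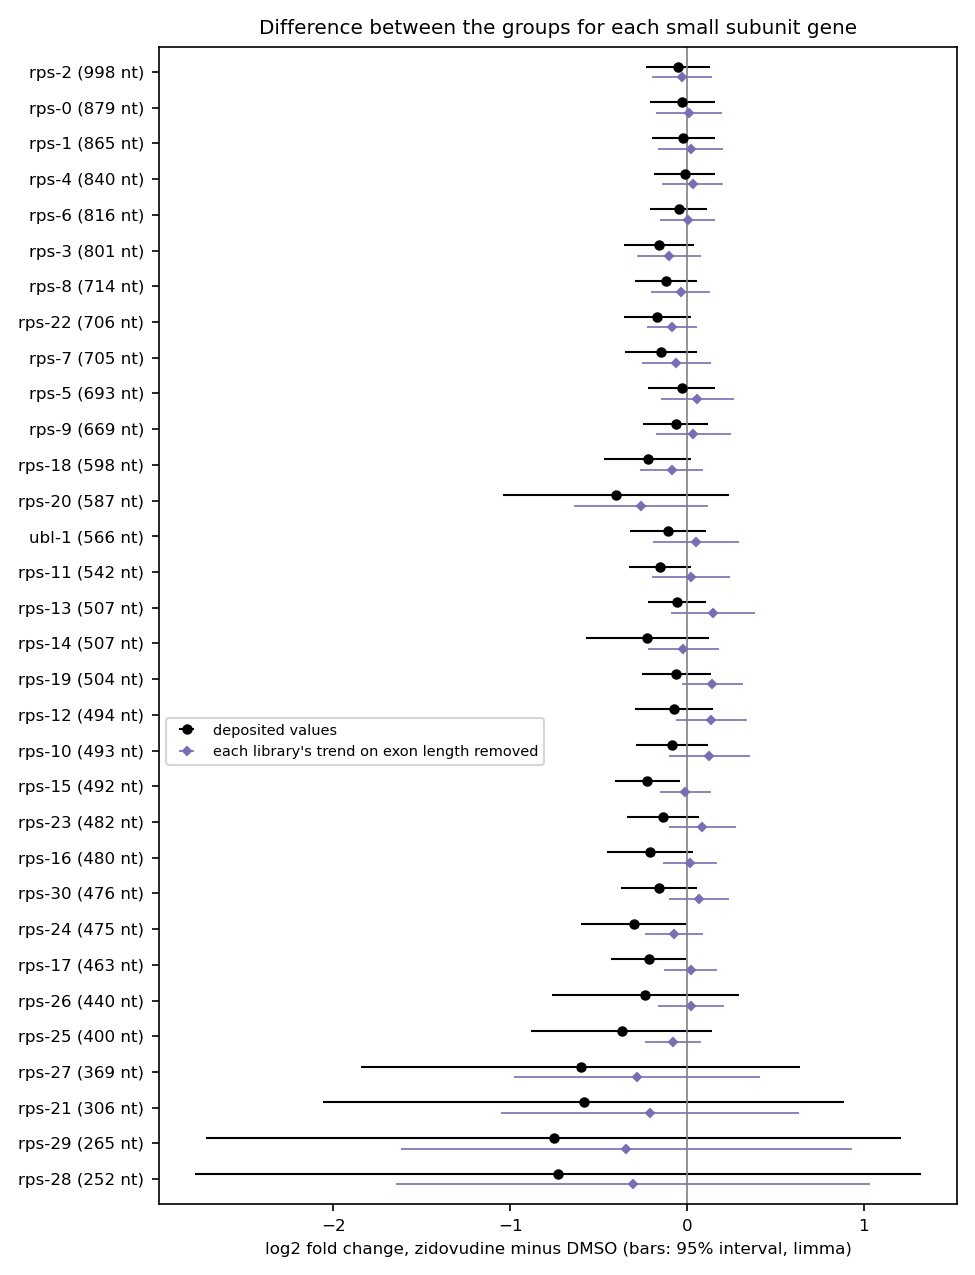
Log2 fold change, zidovudine minus DMSO, of each small subunit gene (horizontal axis) with its 95% interval from limma, ordered by exon length with the longest at the top; black circles use the deposited values and purple diamonds the values after removal of each library's trend on exon length. All 32 black circles lie below 0, and 15 of the 32 diamonds do.

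Fold changes of the members followed the length of their mRNAs. Across the 32 genes the Spearman correlation of the log2 fold change with exon length was 0.768, and with the longest coding length 0.825. The correlation of the range over the 8 libraries with exon length was -0.741. These are descriptions across genes that share the same 8 libraries. The 14 members under 500 nt (252 to 494 nt) had a median log2 fold change of -0.23, beside -0.34 for all 678 tested genes under 500 nt. The 18 members of 500 nt or more (504 to 998 nt) had a median of -0.084, beside -0.067 for the 2725 tested genes of 500 nt to under 1000 nt. The 11 members of 600 nt or more had a median of -0.049. Single libraries moved these medians of the members by more than 1.5 times. Without zidovudine 2 the members under 500 nt were at -0.36. The members of 500 nt or more were at -0.16 without DMSO 1 and at -0.037 without DMSO 4. Those of 600 nt or more were at -0.012 without zidovudine 1, -0.086 without zidovudine 4, -0.12 without DMSO 1 and -0.025 without DMSO 4.

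**Figure D3:**
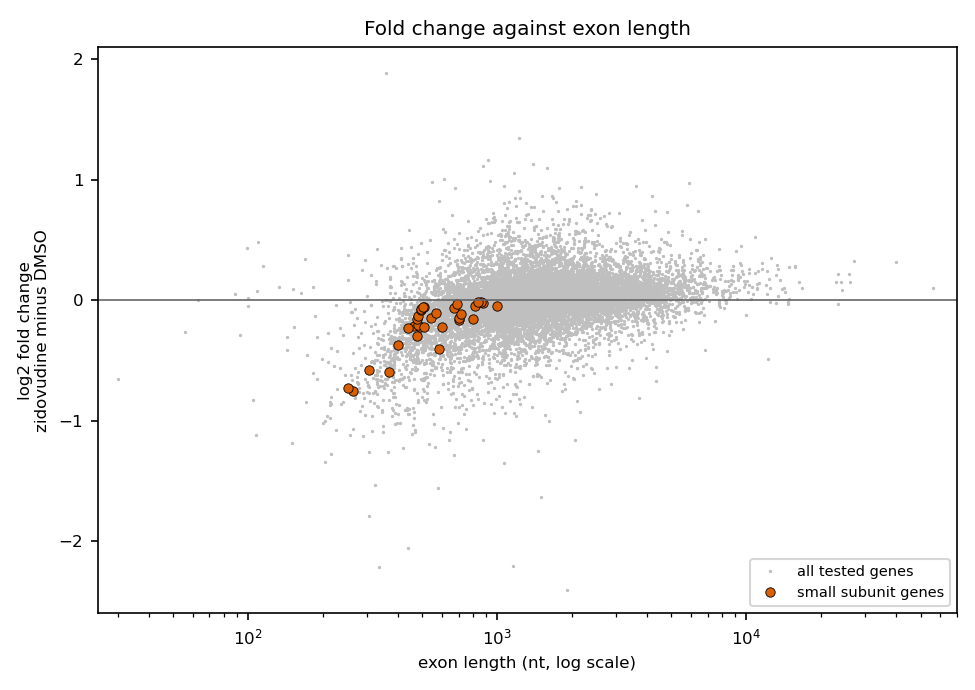
Log2 fold change, zidovudine minus DMSO (vertical axis), against exon length in nt (horizontal axis, log scale); grey points are all tested genes with a known length and orange points the 32 small subunit genes. The members lie between 252 and 998 nt, and those under 400 nt are the lowest.

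Members under 500 nt deviated from their own mean over the 8 libraries by a median of -0.095, 0.23, -0.30 and -0.34 log2 units in zidovudine 1 to 4, and by -0.14, 0.12, 0.056 and 0.36 in DMSO 1 to 4. Members of 500 nt or more deviated by -0.085, -0.0016, -0.14 and 0.026 with zidovudine and by -0.15, 0.072, 0.079 and 0.17 with DMSO. By this median zidovudine 4 was the lowest library for the short members and the highest of its group for the long ones. By the mean log2 CPM of the long members zidovudine 2 was the highest of its group, at 10.22, against 10.16 in zidovudine 4. DMSO 1 was the lowest library of its group in both length classes, while all genes under 500 nt were not low in it. Of the variance of the 32 members around their group means, 93.7% lay on 1 component. It had zidovudine 2 (0.65) and DMSO 4 (0.46) at one end and zidovudine 4 (-0.45) at the other. Genes were not scaled to equal variance, so those with the widest spread weigh most in this share. The median SD was 1.22 with zidovudine and 0.77 with DMSO for members under 400 nt. It was 0.10 and 0.15 for members of 500 nt or more. The share therefore does not show that the longer members follow this component.

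**Figure D4:**
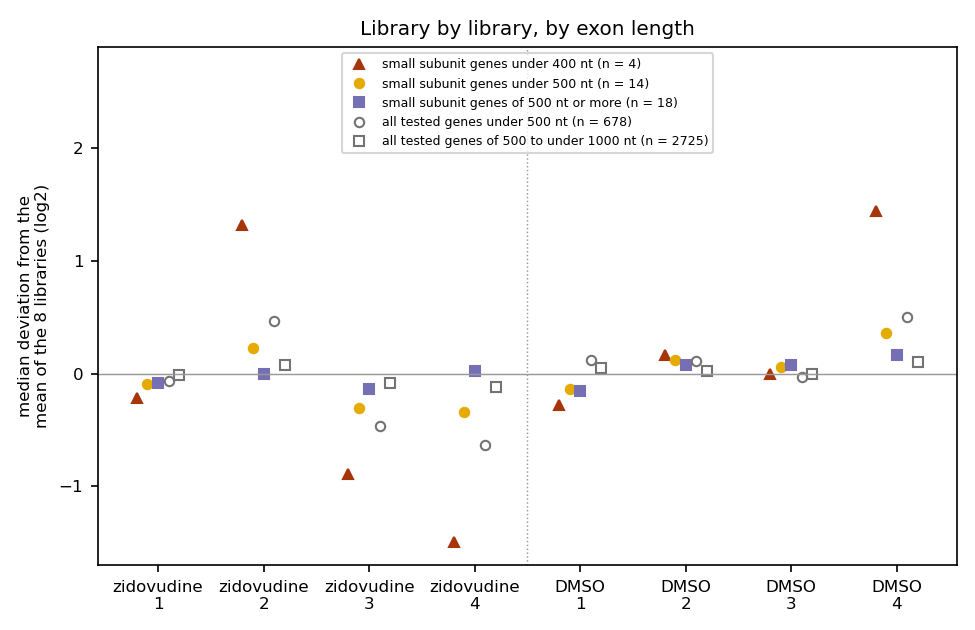
Median deviation of gene sets from each gene's own mean over the 8 libraries (log2, vertical axis) in each library, zidovudine libraries on the left and DMSO libraries on the right; filled symbols are small subunit genes by exon length and open symbols all tested genes. The 4 genes under 400 nt run from -1.50 in zidovudine 4 to 1.44 in DMSO 4, and genes of 500 nt or more stay within 0.17 of 0.

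When the trend of each library on exon length was removed before the fit, the median of the members was 0.0079, 15 of 32 were below 0 (50.3% of all genes were) and all 32 intervals included 0. rps-15 was then at -0.0088 (95% interval -0.15 to 0.13) and rps-24 at -0.073 (-0.24 to 0.090). The members furthest from 0 were rps-29 at -0.34, rps-28 at -0.30 and rps-27 at -0.28 on one side, and rps-13 at 0.15, rps-19 at 0.14 and rps-12 at 0.14 on the other. At an unadjusted p under 0.05 there were 0 members, where 12.1% of all genes passed. The trend was fitted on all genes, among them the members, and its source was not tested. It was fitted without regard to group, so a group difference that goes with length was removed with it. For all tested genes under 500 nt the median deviation averaged -0.17 with zidovudine and 0.18 with DMSO before removal.

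Levels per kilobase of exon set the members side by side, but scaling to length leaves the differences between libraries in short genes. The median over members was 10.86 log2 CPM per kb, and 26 of 32 lay within 1 log2 unit of it. rps-23 was the highest, at 11.85 with zidovudine and 11.99 with DMSO. Its level before scaling to length was 10.74, 10.99, 10.77 and 10.69 log2 CPM in zidovudine 1 to 4, and 10.72, 10.96, 10.91 and 11.15 in DMSO 1 to 4, groups that overlapped over most of their range. rps-28 was the lowest, at 8.32 with zidovudine and 9.05 with DMSO per kb. The next lowest were rps-29, rps-20 and rps-27, all genes whose libraries spread widely, so the order at the low end is less certain than at the high end.

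Neighbouring parts of the translation machinery were read beside the members, without a test between lists. Of all tested genes 47.7% were below 0, and 11.8% had an unadjusted limma p under 0.05. Of 50 tested large subunit genes 47 lay below 0 (median log2 fold change -0.13), with a median exon length of 534 nt beside 507 nt for the small subunit, and 0 past the threshold. The large subunit gene with the smallest p was rpl-22 (-0.33, limma adjusted p = 0.282). With the length trend removed, its list was at 0.0063 with 25 of 50 below 0. Of 29 mitochondrial small subunit genes 28 were below 0 (median -0.14, 0 past the threshold), and with the trend removed 22 of 29 were (median -0.092). An unadjusted limma p under 0.05 was found for 8 of these 29 genes and for 2 of the 50 large subunit genes. mrps-7 had the smallest p among the mitochondrial genes (-0.26, limma adjusted p = 0.268). Its zidovudine libraries all lay below its DMSO libraries, which held for 2.82% of all tested genes.

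Of 18 factors that build the small subunit 16 were below 0 (median -0.089) and 0 passed the threshold, and when the trend was removed 17 were below 0 (median -0.12). Before removal 6 of the 18 had an unadjusted limma p under 0.05, where 11.8% of all genes did. The smallest p in this list was that of C48B6.2 (WBGene00016740), annotated in the table as a putative S4-like small subunit protein. It was at 5.72, 5.83, 5.58 and 5.42 log2 CPM with zidovudine and 6.07, 5.89, 5.83 and 6.14 with DMSO. Its groups did not overlap, as for 2.82% of all genes in this direction, though zidovudine 2 and DMSO 3 had the same rounded level (log2 fold change -0.35, SE 0.094, limma adjusted p = 0.173). Initiation partners of the small subunit had 18 of 24 below 0 with a median of -0.022, and 20 of 24 with the trend removed (median -0.044). None had an unadjusted limma p under 0.05. The smallest p was that of eif-3.I, a subunit of the initiation factor that binds the small subunit (-0.13, limma adjusted p = 0.434). The groups of eif-3.I did not overlap, with zidovudine lower. rack-1, for the scaffold protein RACK1 on the head of the small subunit, was at 10.67, 10.66, 10.79 and 10.98 with zidovudine and 10.74, 10.85, 10.97 and 10.77 with DMSO (log2 fold change -0.057, limma adjusted p = 0.813). Of 8 genes of ribosome-related signalling and rescue 4 were below 0 and 0 passed, with the smallest p at mml-1 (0.21, limma adjusted p = 0.332). Before removal of the trend 1 of the 8 had an unadjusted limma p under 0.05. With the trend removed 6 of the 8 were below 0 (median -0.076).

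The median of the members was negative in all 19 other settings but 1, the removal of the length trend. Some of these settings only drop the trend in limma, change the filter or add the replicate number as a block. These leave every fold change as it was, so the median could not move there. The median was -0.22 without DMSO 1, -0.092 without DMSO 4 and -0.19 without zidovudine 2. The count of members at an unadjusted limma p under 0.05 moved with single libraries, to 11 without DMSO 1 (10.6% of all genes), 12 without zidovudine 2 (17.7%), and 0 without DMSO 4 (9.61%), without zidovudine 3 (7.43%) or without zidovudine 4 (7.66%). With sample quality weights it was 8 (15.3%), and without DMSO 4 and zidovudine 2 together 11 (16.4%). The number of members below 0 was 27 with quantile normalization (45.5% of all genes) and, leaving out 1 library, smallest without DMSO 3, at 29 (47.5%). No member passed at an adjusted p under 0.05 in any of these settings, and the lowest adjusted p of any member in any of them was 0.0921.

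**Figure D5:**
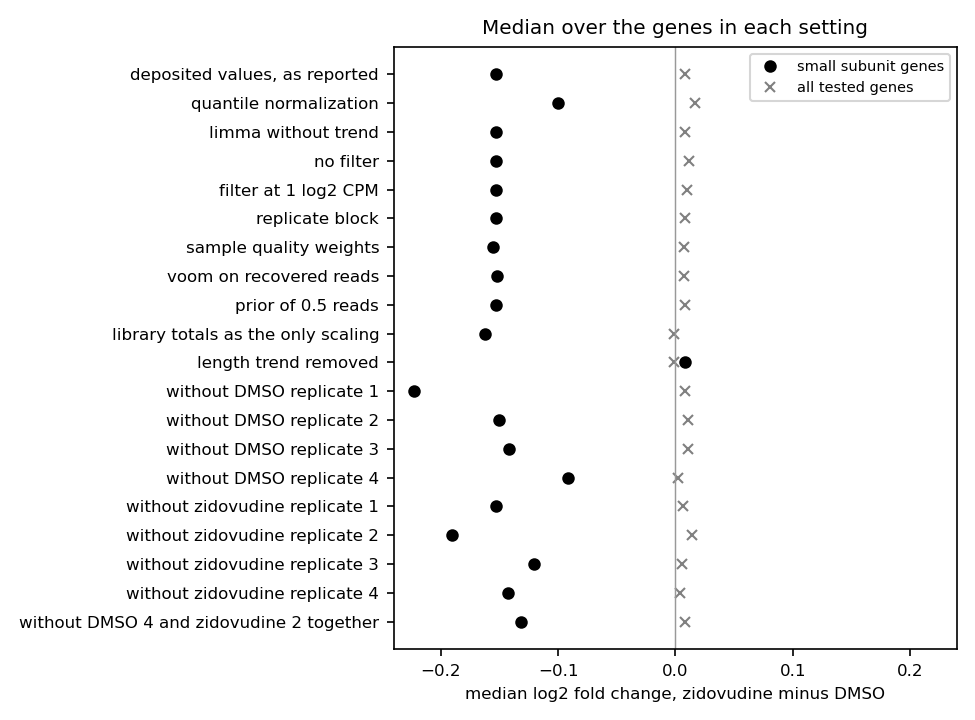
Median log2 fold change, zidovudine minus DMSO (horizontal axis), over the 32 small subunit genes (black circles) and over all tested genes (grey crosses) in each setting. The members' median runs from -0.22 without DMSO 1 to 0.0079 with the length trend removed.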

How the data were processed

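Polyadenylated RNA of 8 samples was sequenced by the authors, who deposited 1 table of 17826 genes. Its column names, per the file headers, say CPM, yet values go down to -4.39, so the deposited values were read as log2 CPM. Tools in the submitters' processing notes are limma 3.40.6, edgeR 3.26.8, HTSeq 0.11.0, HISAT2 2.1.0 and Trimmomatic 0.32, with no roles. Their genome build, annotation and strand setting were not given in the sources used here. In each column the values below 1000 reads were whole multiples of 1 step (100% within 0.05 reads), which gave the reads and a prior of 2 reads. Replicates differed by more than sampling noise (chi-square per degree of freedom 14.1 to 67.2).

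Groups came from the sample titles. The test was limma-trend (limma 3.58.1, R 4.3.3, robust, two-sided) on genes averaging 0 log2 CPM or more, with the group as the only term (6 residual degrees of freedom) and Benjamini-Hochberg adjustment over 12382 genes, threshold 0.05. The fit was tested on simulated data. Positions and exon lengths (union of exons) came by gene ID from Ensembl release 115, build WBcel235. Loess (span 0.5) of each gene's deviation on log2 exon length gave the length trend. Members and lists were chosen with earlier results of these data known, and 3 entries of the assembly list were dropped, and older symbols updated, from the annotation. Every member is named; library values are given for the 6 smallest and 2 largest p, the highest and lowest level per kb, rps-6, ubl-1 and rps-30. Other lists are given by the gene with the smallest p; rack-1 and rsks-1 were added for their known roles, after their values were seen. Promoters and proteins were not analysed here. Alternatives are listed under the dependence on processing.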

Additional observations from a re-analysis of the deposited data

Results flagged for a closer look

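In 3 of 68 groups of 4 libraries examined, the 32 genes in each group and the set's mean level and share of reads, 1 library lay apart from the others by more than Dixon's 95% limit; chance flags about 1 group in 20. All 3 concern DMSO 1, which was low. rps-9 was at 10.35 log2 CPM in DMSO 1, against 10.66 to 10.71 in the other DMSO libraries. rps-12 was at 9.85 in DMSO 1, against 10.18 to 10.23 in the others of the group. rps-13 was at 9.43 in DMSO 1, against 9.68 to 9.70 in the others. Without DMSO 1 the log2 fold changes, zidovudine minus DMSO, were -0.15 for rps-9, -0.16 for rps-12 and -0.12 for rps-13, and none of these 3 genes passed the threshold.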

How the results depend on the processing

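In all 19 alternatives, 0 of the 32 members passed the threshold, and in 10 of them all 32 were below 0. Dropping the trend in limma, changing the filter or adding the replicate number as a block cannot change a fold change. The signs in those settings were fixed in advance and add nothing on direction. With the length trend removed 15 members were below 0 and 17 changed sign: rps-0 (0.012), rps-1 (0.021), rps-4 (0.033), rps-5 (0.059), rps-6 (0.0040), rps-9 (0.037), rps-10 (0.13), rps-11 (0.025), rps-12 (0.14), rps-13 (0.15), rps-16 (0.018), rps-17 (0.022), rps-19 (0.14), rps-23 (0.087), rps-26 (0.023), rps-30 (0.068) and ubl-1 (0.052). With quantile normalization 5 long members changed sign: rps-0 (0.034), rps-1 (0.087), rps-4 (0.026), rps-5 (0.057) and rps-9 (0.046). rps-1 was at 0.0056 with sample quality weights and, without DMSO 4 and zidovudine 2 together, at 0.032, with rps-0 at 0.0024. Leaving out 1 library, rps-0 ranged from -0.086 to 0.018, rps-1 from -0.059 to 0.032, rps-2 from -0.087 to 0.025, rps-4 from -0.072 to 0.018 and rps-5 from -0.12 to 0.023. None of these values passed, and the cause was not tested. Leaving out 1 library, the median of the members ranged from -0.22 to -0.092, the number below 0 from 29 to 32 and the difference of the mean log2 CPM from -0.32 to -0.11.

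The number of genes past the threshold over the whole table, 21, was 13 with quantile normalization, 4 without the trend in limma, 148 with sample quality weights, 12 with library totals as the only scaling, 156 without DMSO 4 and zidovudine 2 together, and 4 (without DMSO 1) to 41 (without zidovudine 2) leaving out 1 library. With the replicate number as a block it was 9 (1 higher, 8 lower), with 0 members called. The block cannot change a fold change in this balanced design, so the members' median of -0.15 was fixed. Libraries with the same number correlated by 0.067, -0.18, 0.14 and -0.32 in their deviations, so the numbers were not taken to pair them, and zidovudine 1 alone correlated best with its own number. The members had 1417 to 112869 reads per library.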
